A study of Mus musculus with 29 samples.

Results

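Naive mice that carry a human transgene for AChE-S, the synaptic splice variant of acetylcholinesterase (TgS), were compared with their FVB/N parent strain in the prefrontal cortex. All arrays whose titles name prefrontal naive controls of these strains entered: 4 of TgS and 4 of FVB/N, 8 of the 29 arrays of the study. The titles number them 1 to 4, and the source labels spell the region differently for controls 1-2 and for controls 3-4, so each strain holds 2 arrays of each set. The comparison was made over both sets with the set as a term, and again within each set. TgS and FVB/N arrays also exist for the naive caudate-putamen, and for both regions 4 days after the dopaminergic neurotoxin MPTP (4 injections of 20 mg/kg, 2 h apart, 80 mg/kg in all), with 2 arrays for each strain, region and treatment. TgR mice, which carry human AChE-R on the same FVB/N background, gave 4 naive prefrontal arrays. The labels describe 36 mice, 6 per strain with saline and 6 with MPTP. The promoter of the transgene, the founder line, the age and sex of the mice, the number of mice behind an array, and whether the naive mice received saline were not stated in the labels used here. Nothing says that arrays of a group came from separate mice, so the p-values measure the spread between arrays, which may be technical.

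Acetylcholinesterase hydrolyses acetylcholine and so ends cholinergic transmission. Its pre-mRNA is spliced at the 3′ end into a synaptic form, AChE-S, whose tail lets it assemble into tetramers anchored at synapses, and a readthrough form, AChE-R, which stays a soluble monomer and is induced by stress. The prefrontal cortex receives cholinergic axons from the basal forebrain, and its neurons, glia and vessels carry muscarinic and nicotinic receptors. Values are log2 RMA signals of probe sets, so 1 unit is a 2-fold step, and a probe set is called a transcript here. Differences are TgS minus FVB/N with the standard error of the fit, and a transcript is called where limma's adjusted p (Benjamini-Hochberg over 22626 transcripts) is under 0.05.

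On all 8 arrays, 10 of 10 markers of striatal projection neurons lay below all 11 caudate-putamen arrays, with a median difference of -2.87. Of 20 cortical excitatory neuron markers, 11 lay above all of them and 1 below. On controls 1-2 of both strains the Y-linked gene Eif2s3y read 3.83 and 3.44 in TgS and 3.42 and 3.79 in FVB/N, against 8.82 and 8.73 in TgS and 9.2 and 8.84 in FVB/N on controls 3-4. Xist, the non-coding RNA of X inactivation, read 10.61 and 9.97 in TgS and 8.87 and 8.62 in FVB/N on controls 1-2, and 7.24 and 7.21 in TgS and 6.91 and 7.03 in FVB/N on controls 3-4. Eif2s3y read 3.43 and 3.62 on TgR controls 1-2, and 8.84 and 8.85 on TgR controls 3-4. On the TgS and FVB/N arrays of the caudate-putamen and after MPTP it read 8.41 to 9.13. By these genes controls 1-2 read as female and the other arrays as male, so sex and set cannot be told apart. The other regions and treatments match controls 3-4 alone in this respect. TgS controls 1 and 2 correlated at 0.995 with each other and at no more than 0.973 with any other of the 8 arrays. In these 2 arrays 379 transcripts lay more than 1 log2 unit above all 27 other arrays of the study, against 9 for FVB/N controls 1 and 2 and 0 for controls 3 and 4 of either strain.

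The strain label was checked with 28 transcripts of 26 genes whose TgS and FVB/N arrays did not overlap in the caudate-putamen or in the MPTP-exposed prefrontal cortex and differed there by more than 1 log2 unit on average. TgS controls 1 to 4 lay nearer to the MPTP-exposed TgS prefrontal mean at 22, 18, 26 and 25 of the 28, and FVB/N controls 3 and 4 at 0 and 0. The arrays labelled FVB/N controls 1 and 2 lay nearer to TgS at 14 and 13 of the 28, and the TgR arrays at 1 to 6. One transcript of Phgdh, the first enzyme of serine synthesis, shows this: it read 5.79, 8.74, 5.11 and 4.96 in TgS controls 1 to 4, and 5.25, 5.39, 10.08 and 9.71 in FVB/N controls 1 to 4. One transcript of Galc, the lysosomal galactosylceramidase, read 7.83, 7.46, 8.16 and 8.22 in TgS, and 8.31, 8.0, 5.27 and 5.23 in FVB/N. Both FVB/N arrays of controls 1-2 thus read like TgS for these genes, and TgS control 2 lay between the strains for Phgdh. For Tnnt2, Erdr1, Mocs2, Ighm, Stx3 and Lsm12 the same 2 arrays read like FVB/N. Which mice they came from cannot be told from the labels, so values within controls 3-4 are given beside the main results below.

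**Figure D1:**
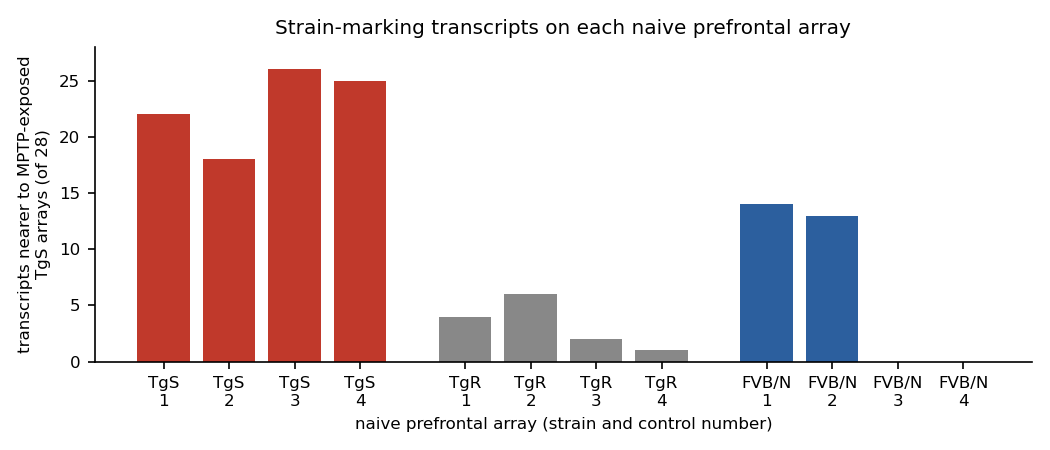
Number of the 28 strain-marking transcripts that lay nearer to the MPTP-exposed TgS than to the MPTP-exposed FVB/N prefrontal mean, for each naive prefrontal array of TgS (red), TgR (grey) and FVB/N (blue). FVB/N controls 3 and 4 score 0, while the arrays labelled FVB/N controls 1 and 2 score 14 and 13.

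Over both sets with the set as a term, 995 transcripts were higher (4.40% of those tested) and 1476 lower (6.52%) in TgS than in FVB/N. Within controls 3-4 the counts were 169 higher (0.747%) and 519 lower (2.29%), and within controls 1-2 they were 2365 higher (10.5%) and 3302 lower (14.6%). The difference itself differed between the sets for 1838 transcripts in the positive direction (8.12%) and 1608 in the negative (7.11%). Of the 995 set-adjusted higher calls, 886 were also called in controls 1-2 and 73 in controls 3-4. Of the 1476 lower calls, 1138 were also called in controls 1-2 and 278 in controls 3-4. The set-adjusted total of 2471 became 843 without controls 1-2 of the 3 strains and 241 with the 8 arrays fitted alone. The 688 calls within controls 3-4 became 190 without FVB/N control 3, 262 without TgS control 3 and 316 without TgS control 4. Across the 22626 transcripts the differences of the 2 sets, which share no array, had a Pearson correlation of 0.10.

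A smaller group differed in both sets. It holds 44 transcripts called higher in each set (0.194% of those tested) and 136 called lower (0.601%), and another 64 were called in opposite directions, 25 higher and 39 lower in controls 3-4. Of the 44 higher transcripts, 42 were higher in TgS in the naive caudate-putamen, 38 in the MPTP-exposed prefrontal cortex and 43 in the MPTP-exposed caudate-putamen, with 21, 16 and 20 called there. Of the 136 lower transcripts, 117, 104 and 123 were lower in these groups in the same order, with 38, 21 and 29 called. In those groups, 2.19%, 0.362% and 0.694% of all transcripts were called in either direction. The means of all 3 groups come from arrays that the comparison of naive prefrontal cortex does not use. The estimate of spread is shared, as each fit holds all 29 arrays. The naive caudate-putamen may also come from the same mice.

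**Figure D2:**
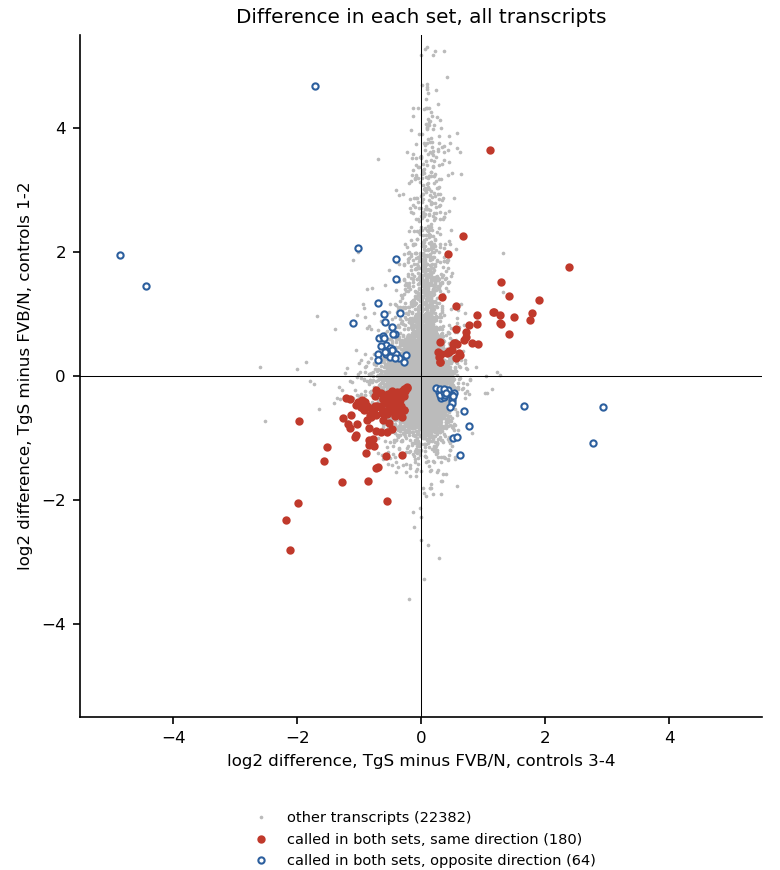
Each point is a transcript, with its log2 difference (TgS minus FVB/N) in controls 3-4 on the x axis and in controls 1-2 on the y axis. The 180 transcripts called in the same direction in both sets (red) lie along the diagonal, the 64 called in opposite directions (open blue) off it, and a column of grey points above 0 holds transcripts high on TgS controls 1 and 2 alone.

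Called in both sets and in all 3 other groups were 9 transcripts on the higher side and 13 on the lower, a selection made after the values were seen. The immunoglobulin heavy chain gene Ighm, which B cells transcribe, read 9.93, 9.69, 10.70 and 10.81 in TgS controls 1 to 4, and 8.07, 8.04, 8.33 and 8.4 in FVB/N. The groups did not overlap in either set, and the difference was 2.39 ± 0.12 in controls 3-4 (limma adjusted p = 4.17e-10) and 1.75 ± 0.12 in controls 1-2. It was the sole called member of 14 measured B cell and plasma cell genes in controls 3-4 (0.747% of all transcripts were called higher there). Of its 11 probe sets, 3 were called higher in controls 3-4 and 0 lower.

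Ccdc59, a gene named for its coiled-coil domain, read 6.27, 6.13, 6.41 and 6.26 in TgS, and 5.02, 5.32, 5.14 and 5.22 in FVB/N. Lsm12, of the LSM family of RNA-binding proteins, read 8.23, 8.08, 8.13 and 8.24 in TgS, and 7.35, 7.28, 7.21 and 7.36 in FVB/N. Alg1, a mannosyltransferase that builds the N-glycan precursor, read 9.42, 9.07, 9.27 and 9.15 in TgS, and 8.54, 8.54, 8.54 and 8.43 in FVB/N. In each of these 3 genes all 4 TgS arrays lay above all 4 FVB/N arrays, and the set-adjusted differences were 1.09 ± 0.09, 0.87 ± 0.09 and 0.71 ± 0.08 (limma adjusted p = 4.72e-07, 5.22e-06 and 5.66e-05). Within controls 3-4 they were 1.16 ± 0.12, 0.90 ± 0.11 and 0.72 ± 0.10. One transcript of Stx3, a SNARE protein gene, read 7.72, 7.20, 8.4 and 8.41 in TgS and 6.18, 6.28, 6.63 and 6.37 in FVB/N. Of the 3 probe sets of Stx3, 1 was called higher, and its brightest read 8.14, 7.81, 8.10 and 7.97 in TgS and 7.62, 7.66, 8.39 and 8.26 in FVB/N, with no call in either set. Likewise 1 of 3 probe sets of Ndufv1, a subunit of respiratory complex I, was called higher (11.40, 11.20, 11.17 and 11.20 in TgS, 10.32, 10.32, 10.36 and 10.22 in FVB/N).

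On the lower side, Erdr1 read 9.82, 9.93, 10.20 and 10.27 in TgS controls 1 to 4, and 12.01, 11.86, 12.43 and 12.03 in FVB/N. Tnnt2, cardiac troponin T, read 5.61, 5.83, 5.65 and 5.40 in TgS, and 7.30, 7.56, 6.79 and 6.83 in FVB/N. Mocs2, which encodes both subunits of molybdopterin synthase, read 9.44, 9.95, 9.90 and 9.90 in TgS, and 10.69, 10.67, 10.89 and 11.04 in FVB/N. All 4 TgS arrays lay below all 4 FVB/N arrays for each of these genes. Within controls 3-4 the differences were -2.0 ± 0.15 for Erdr1, -1.28 ± 0.14 for Tnnt2 and -1.06 ± 0.11 for Mocs2 (limma adjusted p = 2.40e-07, 1.20e-05 and 4.83e-06). Within controls 1-2 they were -2.06 ± 0.15, -1.71 ± 0.14 and -0.98 ± 0.11. For these 3 the difference between the sets was not called (adjusted p = 0.884, 0.153 and 0.778).

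Hexdc, a hexosaminidase gene, read 7.79, 8.20, 7.96 and 7.94 in TgS, and 9.04, 9.03, 8.91 and 8.68 in FVB/N. Eri2, an exoribonuclease family gene, read 6.37, 6.37, 6.16 and 6.05 in TgS, and 7.04, 6.97, 7.31 and 7.17 in FVB/N. Chil1, a chitinase-like protein gene, read 7.63, 7.57, 7.38 and 7.44 in TgS, and 7.81, 8.03, 7.80 and 7.85 in FVB/N. The strains did not overlap for these genes, with set-adjusted differences of -0.94 ± 0.08, -0.89 ± 0.08 and -0.37 ± 0.08, and differences of -0.84 ± 0.11, -1.14 ± 0.08 and -0.41 ± 0.09 within controls 3-4. For Eri2 the fall was larger in controls 3-4 than in controls 1-2 (by 0.50 ± 0.11, limma adjusted p = 0.00381). It was also larger than in the MPTP-exposed prefrontal cortex (-0.49 ± 0.11, limma adjusted p = 0.0456). Of 9 measured molybdenum cofactor synthesis genes and enzymes, Mocs2 and Xdh, the xanthine dehydrogenase gene, were lower in both sets (0.601% of all transcripts), and 0 were higher in either. Xdh read 6.21, 6.18, 5.70 and 5.63 in TgS and 6.78, 6.73, 6.31 and 6.14 in FVB/N, and was not called in any of the 3 other groups.

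**Figure D3:**
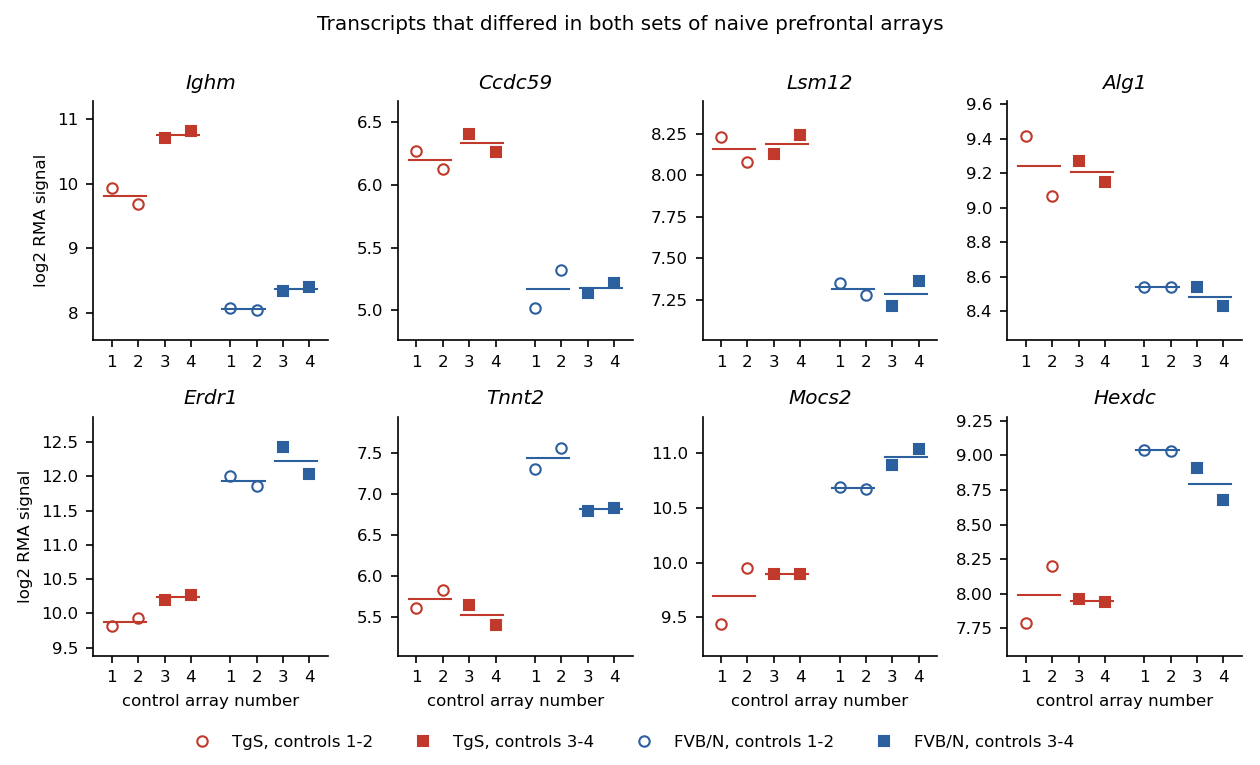
Log2 RMA signal of 8 transcripts on each naive prefrontal array, TgS (red) left of FVB/N (blue), with controls 1-2 as open circles, controls 3-4 as filled squares and a line at the mean of each pair. In the upper row all 4 TgS arrays lie above all 4 FVB/N arrays, and in the lower row all 4 lie below them.

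Among 19 measured glyoxalase and antioxidant genes, 2 were higher in both sets and 0 were lower in both (0.194% and 0.601% of all transcripts). Glo1, which detoxifies methylglyoxal, read 11.03, 11.27, 11.82 and 11.83 in TgS, and 10.22, 10.19, 10.23 and 10.43 in FVB/N. Gsr, glutathione reductase, read 9.2, 9.02, 8.77 and 8.78 in TgS, and 8.73, 8.77, 8.49 and 8.42 in FVB/N. Both genes lay higher in TgS within each set, by 1.5 ± 0.21 and 0.32 ± 0.08 in controls 3-4 (limma adjusted p = 0.000254 and 0.0297), and all 3 probe sets of Glo1 were called. In the MPTP-exposed prefrontal cortex Glo1 differed by 0.20 ± 0.23 (adjusted p = 1.0), and the naive difference in controls 3-4 exceeded it by 1.30 ± 0.29 (adjusted p = 0.0469). Smarcc1, a scaffold subunit of SWI/SNF chromatin remodellers, read 10.15, 9.85, 7.45 and 7.40 in TgS, and 6.23, 6.47, 6.35 and 6.29 in FVB/N. It was higher in both sets, by 1.10 ± 0.15 in controls 3-4 and by 3.65 ± 0.15 in controls 1-2, and the sets differed (2.54 ± 0.21, adjusted p = 2.41e-08). Of the other measured subunit genes of that complex, 0 were called in controls 3-4.

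Endothelial markers were the list with the most calls in controls 3-4. Endothelial cells line the vessels, and in brain they form the blood-brain barrier through tight junctions and efflux pumps. Of 25 measured markers, 16 were lower in TgS and 0 higher in controls 3-4 (2.29% of all transcripts were called lower), with a median difference of -0.55 against 0.01 for all transcripts. The 2 TgS arrays lay below both FVB/N arrays for 23 of the 25, and for 25.1% of all transcripts. Over both sets with the set as a term, 12 of 25 were lower and 0 higher, with 17 lower without controls 1-2, 6 with the 12 naive prefrontal arrays, 5 with no set term and 3 with the 8 arrays fitted alone. Within controls 3-4 the count was 12 with those 12 arrays and 13 with the 8 alone. In bulk tissue, fewer cells of a type and less RNA per cell cannot be told apart.

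Cldn5, the tight junction protein of the barrier, read 10.21, 9.78, 8.73 and 8.57 in TgS controls 1 to 4, and 9.88, 9.87, 10.13 and 9.56 in FVB/N. Cxcl12, a chemokine, read 9.30, 9.46, 8.20 and 8.08 in TgS, and 10.02, 9.82, 9.97 and 9.60 in FVB/N. Tek, the angiopoietin receptor, read 7.99, 7.77, 6.81 and 6.75 in TgS, and 8.18, 8.05, 8.29 and 7.82 in FVB/N. TgS controls 3 and 4 were the lowest of the 8 arrays for each of these genes, and controls 1-2 of the strains were closer together. Within controls 3-4 the differences were -1.20 ± 0.16 for Cldn5, -1.65 ± 0.20 for Cxcl12 and -1.27 ± 0.18 for Tek (limma adjusted p = 0.000167, 4.93e-05 and 0.000337). Within controls 1-2 they were 0.12 ± 0.16, -0.54 ± 0.20 and -0.23 ± 0.18, none of them called. Flt1, the VEGF receptor gene, was called in opposite directions, at -1.10 ± 0.15 in controls 3-4 and 0.86 ± 0.15 in controls 1-2, as were Kdr (-0.42 ± 0.11 and 0.67 ± 0.11) and the phosphatase gene Ptprb (-0.41 ± 0.11 and 1.56 ± 0.11).

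Of the endothelial genes, 3 were lower in both sets. Abcb1a, the P-glycoprotein efflux pump, read 8.30, 8.24, 7.82 and 7.72 in TgS and 8.88, 8.74, 8.59 and 8.48 in FVB/N. Slco1a4, an organic anion transporter, read 9.14, 9.05, 9.09 and 9.08 in TgS and 9.48, 9.59, 9.77 and 9.50 in FVB/N. Itm2a, a membrane protein gene, read 10.80, 10.84, 11.03 and 10.87 in TgS and 11.18, 11.22, 11.66 and 11.46 in FVB/N. For these the TgS arrays lay below all FVB/N arrays, with set-adjusted differences of -0.65 ± 0.08, -0.49 ± 0.09 and -0.49 ± 0.11 (limma adjusted p = 0.000136, 0.00453 and 0.0101). Within controls 3-4 they were -0.77 ± 0.11, -0.55 ± 0.12 and -0.61 ± 0.13 (adjusted p = 5.40e-04, 0.0155 and 0.0113). There the call of Slco1a4 was lost without FVB/N control 3 (-0.42, adjusted p = 0.308), TgS control 3 (-0.55, 0.113) or TgS control 4 (-0.54, 0.1), and that of Itm2a without FVB/N control 3 (-0.51, 0.221) or TgS control 4 (-0.53, 0.131). The count of lower endothelial markers in controls 3-4 was 9 without that array and 9 without TgS control 4.

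In the naive caudate-putamen, the MPTP-exposed prefrontal cortex and the MPTP-exposed caudate-putamen, 0, 0 and 0 of the 25 markers were called, with medians of -0.12, 0.07 and -0.07. Without controls 1-2 of the 3 strains in the fit, 1 marker was lower in the naive caudate-putamen, and 1 higher in each MPTP-exposed region. The test of the naive difference in controls 3-4 against the MPTP-exposed difference in the prefrontal cortex called 10 of the 25 lower and 0 higher, where 0.539% of all transcripts were lower and 0.159% higher. Leaving out 1 array gave 3 to 13 lower in that test. Cldn5 differed there by -1.52 ± 0.22 (adjusted p = 0.00359), Cxcl12 by -1.67 ± 0.28 (0.00827) and Tek by -1.26 ± 0.26 (0.0307). The mean signal of the 25 markers was 8.78, 8.64, 7.94 and 7.87 on TgS controls 1 to 4, and 8.77, 8.71, 8.67 and 8.44 on FVB/N controls 1 to 4. It was 8.71, 8.82, 8.15 and 8.23 on TgR controls 1 to 4, so controls 3 and 4 of TgR also lay below both FVB/N arrays of that set. On the MPTP-exposed prefrontal arrays it was 8.71 and 8.69 in TgS and 8.54 and 8.63 in FVB/N.

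Markers of the meninges, the membranes on the brain surface, also held lower calls in controls 3-4. Of 17 measured meningeal and fibroblast markers 6 were lower and 0 higher (median -0.37), where 2.29% of all transcripts were lower and 0.747% higher. Of those 6, 0 were called in controls 1-2. The list's mean signal on controls 3 and 4 was 8.01 and 8.01 in TgS, 8.25 and 8.33 in TgR, and 8.37 and 8.46 in FVB/N. Both TgR arrays of that set thus also lay below FVB/N. The list's median was 0.29 in the naive caudate-putamen, 0.19 in the MPTP-exposed prefrontal cortex and -0.32 in the MPTP-exposed caudate-putamen, where 2 were lower. Fn1, fibronectin, read 9.87, 9.70, 8.63 and 8.42 in TgS and 10.00, 9.86, 9.18 and 9.24 in FVB/N. Aldh1a2, the retinoic acid synthesising enzyme of the meninges, read 7.44, 7.44, 6.09 and 6.03 in TgS and 7.69, 7.31, 6.99 and 6.99 in FVB/N. TgS controls 3 and 4 lay below both FVB/N arrays of that set for both genes, with differences of -0.69 ± 0.14 and -0.93 ± 0.16 (limma adjusted p = 0.00788 and 0.00165). Fn1 lost its call without FVB/N control 3 (-0.72, adjusted p = 0.0695) or TgS control 4 (-0.58, adjusted p = 0.113), and with the mean of its 2 probe sets it was -0.28 (adjusted p = 0.183). Zic1, a transcription factor gene of meninges and cerebellum, read 9.79, 9.63, 7.18 and 6.87 in TgS and 8.99, 8.91, 8.52 and 8.33 in FVB/N (controls 3-4 -1.40 ± 0.28, adjusted p = 0.00823), a call lost without FVB/N control 3 (-1.31, 0.124) or TgS control 4 (-1.24, 0.1). Slc6a20a, a proline transporter gene, read 8.39, 8.62, 7.58 and 7.71 in TgS and 8.79, 8.58, 9.06 and 8.88 in FVB/N.

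Mural cell markers had 1 of 14 lower in controls 3-4, Vtn, the vitronectin gene, at -0.77 ± 0.11. Markers of the olfactory bulb projection neurons, another tissue that a frontal dissection could hold, had 0 of 8 called in controls 3-4, with a median of -0.68, and 0.77 in controls 1-2. The part of the dissection margin in the vessel and meningeal differences was not tested. In controls 3-4, 0 of 11 choroid plexus markers were called (median 0.06), and 0 of 6 red blood cell genes (median 0.04).

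Of 20 measured astrocyte markers 3 were lower in controls 3-4 (2.29% of all transcripts) and 0 higher: Gfap, the intermediate filament of astrocytes, Vim, the vimentin gene, which vessel and meningeal cells also transcribe, and the transcription factor gene Sox9, which was called in the opposite direction in controls 1-2 (-0.46 ± 0.11 in controls 3-4 and 0.34 ± 0.11 in controls 1-2, limma adjusted p = 0.0312 and 0.0319). Gfap read 9.68, 9.55, 8.27 and 8.14 in TgS and 10.07, 9.87, 9.62 and 9.12 in FVB/N, a difference of -1.17 ± 0.18 in controls 3-4 (limma adjusted p = 0.000656) and -0.35 ± 0.18 in controls 1-2 (adjusted p = 0.156). Both probe sets of Gfap were called. Vim read 8.43 and 8.49 in TgS controls 3 and 4, and 9.38 and 9.09 in FVB/N controls 3 and 4 (-0.78 ± 0.14, adjusted p = 0.00367), a call lost without FVB/N control 3 (-0.63, adjusted p = 0.112) or TgS control 3 (-0.74, 0.0506). Microglia markers had 0 of 16 called in controls 3-4, with a median of -0.13.

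**Figure D4:**
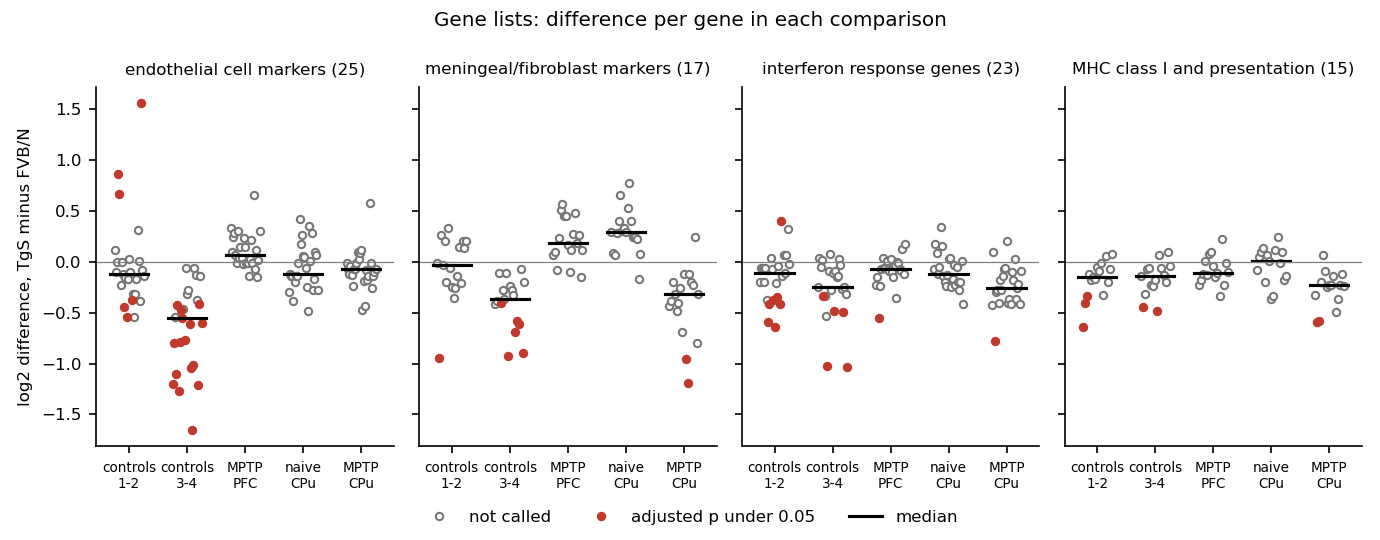
Log2 difference (TgS minus FVB/N) of every measured gene of 4 lists in controls 1-2, controls 3-4, the MPTP-exposed prefrontal cortex (PFC), and the naive and MPTP-exposed caudate-putamen (CPu). Filled red points are called, open points are not, and the bar is the median. The endothelial median is -0.55 in controls 3-4 and lies between -0.12 and 0.07 in the other 4 comparisons.

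Interferon response genes are switched on by STAT and IRF factors, many of them through the interferon-stimulated response element, and MHC class I genes present peptides to T cells. Of 23 measured interferon response genes, 9 were lower in TgS and 0 higher over both sets with the set as a term (6.52% and 4.40% of all transcripts), with a median of -0.20 against -0.005 for all transcripts. Of 15 measured genes of MHC class I and antigen presentation, 5 were lower and 0 higher (median -0.19). Within controls 3-4 the lower counts were 5 of 23 and 2 of 15 (2.29% of all transcripts). Called lower in both sets were 1 interferon gene, Ifitm3, and 1 class I gene, H2-K1 (0.601% of all transcripts). Both set-adjusted counts depended on the fit. The interferon count was 4 with array weights or without controls 1-2, 2 with the 12 naive prefrontal arrays, 2 with the 8 arrays alone and 0 with no set term, and the class I count was 3 with a replicate block or without controls 1-2, 2 with the 8 arrays alone and 1 with the 12 arrays or no set term. Leaving out 1 of the 8 arrays gave 3 (without TgS control 2) to 8 lower interferon genes and 3 to 4 class I genes set-adjusted, and 2 (without FVB/N control 3 or TgS control 4) to 5 interferon genes and 1 (without FVB/N control 3 or TgS control 3) to 3 class I genes in controls 3-4.

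The 9 genes were Ifitm1, Ifitm2 and Ifitm3, whose products block virus entry, the transcription factors Irf9 and Stat2 of the interferon-activated ISGF3 complex, Oasl2, Bst2, Gbp3 and Trim25. Of the 19 measured interferon genes with a RefSeq start-site window (250 bases before to 50 after the start, build GRCm38.p6), 11 held the core of that element (GAAA, any 2 bases, GAAA) on either strand, against 3.99% of all 27025 genes with a window. Among the 9 that were lower it was 5, and among 10 that were not called it was 6, so the core was about as common in both. Of the 5 lower class I and presentation genes it was 1, B2m. Overlapping matches were each counted. The 6 stretches below are these matches in the lower genes, shown on the strand of the gene with the core in capitals (TTTC, any 2 bases, TTTC where it lies on the other strand). They lie on chromosome 7 for Ifitm2 (chr7:140955973-140956032, minus strand) and Ifitm3 (chr7:141010716-141010742, minus strand, bases 3 to 29 of the transcribed part), and on chr3:142559974-142560039 (plus strand) for Gbp3. The others are chr8:71537562-71537627 (minus strand) for Bst2, chr10:128270251-128270310 (plus strand) for Stat2 and chr2:122147523-122147582 (plus strand) for B2m.
Ifitm2: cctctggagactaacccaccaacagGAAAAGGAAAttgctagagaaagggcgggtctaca
Ifitm3: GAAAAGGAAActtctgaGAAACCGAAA
Gbp3: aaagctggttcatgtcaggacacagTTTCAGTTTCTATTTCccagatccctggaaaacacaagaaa
Bst2: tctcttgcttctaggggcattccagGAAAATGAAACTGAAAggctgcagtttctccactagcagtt
Stat2: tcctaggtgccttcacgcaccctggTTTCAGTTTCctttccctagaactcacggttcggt
B2m: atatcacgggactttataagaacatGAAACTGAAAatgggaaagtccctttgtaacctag

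Ifitm3, with 2 cores in its window, read 9.34, 9.31, 8.56 and 8.37 in TgS controls 1 to 4, and 9.81, 9.67, 9.64 and 9.33 in FVB/N. It was lower in both sets, at -1.02 ± 0.15 in controls 3-4 and -0.41 ± 0.15 in controls 1-2 (limma adjusted p = 0.000377 and 0.0446), and Ifitm3 is also abundant in endothelial cells. Bst2, with 2 overlapping cores, read 6.61, 6.76, 6.81 and 6.76 in TgS and 7.04, 7.16, 6.87 and 6.98 in FVB/N, and Stat2, with 1, read 6.55, 6.45, 7.24 and 7.19 in TgS and 7.16, 7.12, 7.33 and 7.32 in FVB/N. Both of these differed in controls 1-2 (-0.41 ± 0.08 and -0.64 ± 0.12) and were not called in controls 3-4 (-0.14 ± 0.08 and -0.11 ± 0.12). Gbp3, a guanylate-binding protein gene, was called lower in controls 3-4 (-0.49 ± 0.09) and not called in controls 1-2 (-0.11 ± 0.09). A call in 1 set alone does not show that the sets differ. Trim25, a ubiquitin ligase of RNA sensing, read 7.02, 6.88, 5.64 and 5.74 in TgS and 7.05, 6.89, 6.87 and 6.57 in FVB/N, with -1.03 ± 0.10 in controls 3-4 (adjusted p = 4.35e-06) and no call in controls 1-2.

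Of the class I genes, H2-K1 read 10.37, 10.29, 9.61 and 9.61 in TgS, and 10.68, 10.77, 10.02 and 10.08 in FVB/N. It was lower, at -0.44 ± 0.08 in controls 3-4 and -0.40 ± 0.08 in controls 1-2 (limma adjusted p = 0.00535 and 0.00173), and also in the MPTP-exposed caudate-putamen (-0.59 ± 0.08, adjusted p = 0.000873). Its call in controls 3-4 was lost without TgS control 3 (-0.44, adjusted p = 0.0538) and with the 12 naive prefrontal arrays (-0.44, 0.0575). B2m, the light chain of class I molecules, read 11.06, 11.17, 11.53 and 11.52 in TgS, and 11.75, 11.76, 11.67 and 11.66 in FVB/N, a difference of -0.64 ± 0.08 in controls 1-2 and -0.14 ± 0.08, not called, in controls 3-4. H2-K1 and H2-D1 are close in sequence and probes may cross-hybridise, so their values may not be independent. In the other groups 0, 1 and 1 of the interferon genes and 0, 0 and 2 of the class I genes were lower (naive caudate-putamen, MPTP-exposed prefrontal cortex and MPTP-exposed caudate-putamen), with interferon medians of -0.12, -0.07 and -0.26. There 2.19%, 0.362% and 0.694% of all transcripts were called in either direction. The fit of these groups includes controls 1-2 of the 3 strains. Without them the calls over all transcripts rose from 495, 82 and 157 to 2092, 261 and 915.

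The largest set-adjusted rises were found on TgS controls 1 and 2. Of the 12 largest rises whose TgS arrays lay above both FVB/N arrays in each set, all 12 were called in controls 1-2 and 2, Smarcc1 and Ighm, in controls 3-4. The other 10 differed by 3.38 to 4.61 in controls 1-2 and by 0.11 to 0.46 in controls 3-4. Nfix, a nuclear factor I transcription factor gene, read 11.35, 11.32, 6.81 and 6.97 in TgS controls 1 to 4, and 6.81, 6.64, 6.68 and 6.62 in FVB/N. Pak3, a p21-activated kinase gene, read 11.36, 11.26, 7.42 and 7.23 in TgS, and 7.01, 7.11, 7.20 and 7.13 in FVB/N. Kcna1, a potassium channel gene, read 10.73, 11.05, 7.51 and 7.41 in TgS, and 7.03, 7.19, 7.18 and 7.38 in FVB/N. TgS controls 1 and 2 thus stood far above the other 6 arrays, which lay together.

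The same pattern was read for Rasal2 and Gpd2, a GTPase-activating protein gene and the mitochondrial glycerol-3-phosphate dehydrogenase gene, and for Mfap3, the splicing factor gene Rbfox1, the calcium channel gene Cacnb4, the GABA-A receptor gene Gabrb1 and the nuclear receptor gene Rora. Their differences in controls 1-2 were 4.15, 4.05, 3.87, 3.71, 3.45, 3.6 and 3.38. For all 10 genes the set-adjusted call was lost without controls 1-2, and Nfix then differed by 0.24 (adjusted p = 0.156) and Pak3 by 0.16 (0.429). Of 5 probe sets of Nfix 3 were called higher. Among the transcripts whose difference varied most between the sets, AI504432 read 9.51, 9.32, 4.37 and 4.14 in TgS and 4.09, 4.25, 3.89 and 4.18 in FVB/N. Bcl11b, a transcription factor gene of deep-layer and striatal neurons, read 10.85, 10.84, 6.36 and 6.21 in TgS and 6.32, 6.12, 6.03 and 6.35 in FVB/N. Pura, a nucleic acid-binding protein gene, read 12.18, 12.15, 7.5 and 7.61 in TgS and 7.84, 7.85, 7.58 and 7.65 in FVB/N. Of the 379 transcripts that lay more than 1 unit above all other arrays, 300 were called higher set-adjusted, with a median difference of 2.60 in controls 1-2 and 0.10 in controls 3-4, where 7 were called.

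**Figure D5:**
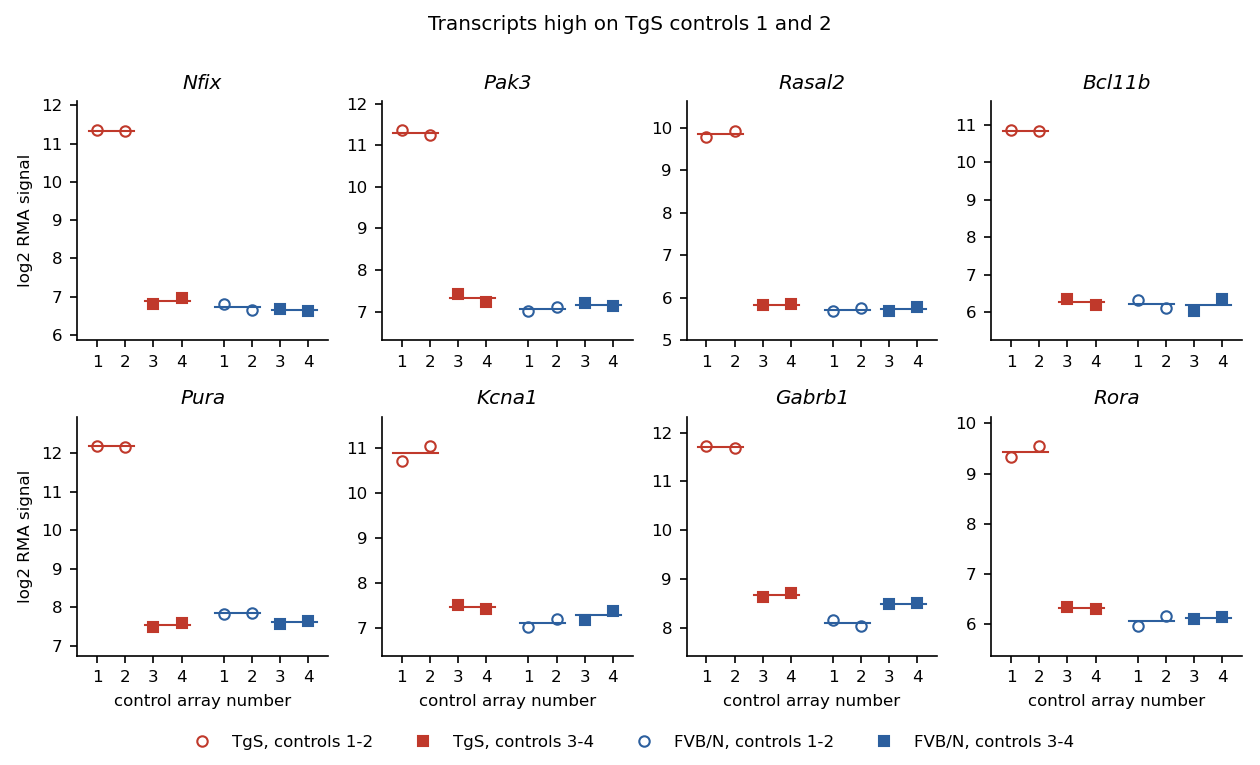
Log2 RMA signal of 8 transcripts on each naive prefrontal array, TgS (red) left of FVB/N (blue), drawn as open circles for controls 1-2 and filled squares for controls 3-4, with a line at the mean of each pair. TgS controls 1 and 2 lie above the other 6 arrays in every panel, by 3.38 (Rora) to 4.62 (Bcl11b) over FVB/N of the same set.

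Other genes were low on those 2 arrays. The probe set of Actb, beta-actin, read 10.23, 10.09, 12.54 and 12.53 in TgS, and 12.66, 12.54, 12.69 and 12.61 in FVB/N. The other probe set of Actb went the other way on the same arrays, at 13.29, 13.4, 12.33 and 12.42 in TgS and 12.27, 12.22, 12.32 and 12.46 in FVB/N. Slc44a2, a choline transporter-like gene, read 7.96, 7.78, 9.34 and 9.34 in TgS, and 9.95, 9.84, 10.05 and 9.74 in FVB/N, and was lower in both sets (-0.56 ± 0.14 in controls 3-4, limma adjusted p = 0.0276). Usf1, a transcription factor gene, read 6.55, 6.99, 8.73 and 8.72 in TgS and 9.10, 9.01, 8.68 and 8.79 in FVB/N.

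For a further 2 genes the arrays labelled FVB/N controls 1 and 2 stood apart. Krt12, a keratin gene, read 6.88, 6.98, 7.48 and 7.55 in TgS and 9.59, 9.74, 7.32 and 7.48 in FVB/N. Fgf1, a growth factor gene, read 7.19, 7.19, 6.86 and 7.24 in TgS and 9.40, 9.24, 7.24 and 6.89 in FVB/N. In both, the strains touched or overlapped in controls 3-4, and the differences there were not called (0.12 ± 0.15 and -0.01 ± 0.13).

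Some genes at which FVB/N controls 1 and 2 read like TgS were called in controls 3-4 and not set-adjusted, such as Gdpd3 and Baiap2l1, while others, such as Eqtn and Ogfrl1, were called in both. Gdpd3, a lysophospholipase D gene, read 5.90, 8.32, 5.52 and 5.34 in TgS, and 5.70, 5.63, 9.98 and 9.76 in FVB/N. Its difference was -4.44 ± 0.42 in controls 3-4 (limma adjusted p = 3.16e-06), 1.45 ± 0.42 in controls 1-2 (0.0164) and -1.50 ± 0.76 set-adjusted (0.221). Baiap2l1, a membrane-bending adaptor gene, read 7.07, 7.19, 8.51 and 8.62 in TgS, and 8.38, 8.06, 5.71 and 5.87 in FVB/N, with 2.77 ± 0.13 in controls 3-4 and -1.09 ± 0.13 in controls 1-2. The Phgdh transcript above differed by -4.86 ± 0.50 in controls 3-4 (adjusted p = 8.03e-06). Another Phgdh probe set, the brightest of 4, read 10.35, 10.43, 9.99 and 10.00 in TgS and 10.53, 10.41, 10.45 and 10.33 in FVB/N, and 3 of the 4 were called lower in controls 3-4. The probe sets of Galc disagreed in direction: the transcript above was higher in controls 3-4 (2.94 ± 0.15), while the brightest of 3 read 5.53, 5.59, 6.42 and 6.66 in TgS and 6.24, 6.31, 7.19 and 7.13 in FVB/N. Cth, which makes cysteine from cystathionine, read 6.74, 6.12, 6.96 and 7.18 in TgS and 6.73, 6.68, 6.09 and 5.93 in FVB/N, and Mcm6, a replicative helicase subunit, 7.55, 7.33, 7.08 and 7.08 in TgS and 7.47, 7.41, 6.14 and 5.92 in FVB/N. Both were higher in controls 3-4 (1.06 ± 0.14 and 1.05 ± 0.16) and not called in controls 1-2.

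Tmem159, Hspb3 and Meg3 were called in both sets but not in every other group. Tmem159, a lipid droplet assembly gene, read 7.88, 8.16, 7.35 and 7.49 in TgS and 8.53, 8.87, 8.59 and 8.79 in FVB/N, with calls in the naive caudate-putamen (-0.70 ± 0.17) and the MPTP-exposed prefrontal cortex (-0.93 ± 0.17). Hspb3, a small heat shock protein gene, read 7.47, 7.22, 7.73 and 7.62 in TgS and 6.48, 6.54, 6.47 and 6.29 in FVB/N, and was also higher in the MPTP-exposed prefrontal cortex (0.80 ± 0.16, limma adjusted p = 0.0267). Meg3, an imprinted long non-coding RNA, read 11.31, 10.95, 12.71 and 12.61 in TgS and 12.52, 12.67, 13.44 and 13.28 in FVB/N. Of the 5 probe sets of Meg3, 4 were lower set-adjusted, while another read 8.65 and 8.21 on TgS controls 1 and 2 and 4.86 and 4.99 on FVB/N controls 1 and 2. Neat1, the scaffold RNA of paraspeckles, read 8.38, 7.98, 8.15 and 8.48 in TgS and 9.10, 8.73, 9.68 and 9.36 in FVB/N, with all 4 TgS arrays below all FVB/N arrays and a set-adjusted difference of -0.97 ± 0.20 (adjusted p = 0.00752). It was called in controls 3-4 (-1.21 ± 0.27, adjusted p = 0.0167) and not in controls 1-2 (-0.73 ± 0.27, 0.0536).

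Some of the largest falls were called in 1 set. Rgs11, a G protein signalling regulator gene, read 7.91, 7.88, 9.18 and 9.07 in TgS and 9.29, 9.19, 10.03 and 9.46 in FVB/N. Mtm1, the myotubularin gene, read 7.21, 7.09, 9.08 and 8.81 in TgS and 8.57, 8.58, 9.65 and 9.30 in FVB/N. Both were called set-adjusted (-0.98 ± 0.17 each) and not in controls 3-4 (-0.62 ± 0.20 and -0.53 ± 0.19), like 6820431F20Rik (-0.96 ± 0.22 and -0.69 ± 0.24). Gprc5b, an orphan receptor gene, read 9.93, 10.14, 8.66 and 8.84 in TgS and 10.44, 10.35, 10.27 and 9.94 in FVB/N, and was lower in controls 3-4 (-1.35 ± 0.19, limma adjusted p = 0.000337). Sox17, an endothelial transcription factor gene, was lower there, at -1.21 ± 0.19 (adjusted p = 0.000851).

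Set-adjusted, genes of the transgene's own pathway were called about as often as all transcripts. The Ache probe set is read here as the mouse gene and is no check of the human transgene. Mouse Ache read 9.11, 9.04, 8.73 and 8.80 in TgS, and 9.74, 9.44, 8.92 and 8.82 in FVB/N. TgS lay below FVB/N in each set, and the arrays of controls 3-4 lay close together. The set-adjusted difference was -0.31 ± 0.10 (limma adjusted p = 0.0462), -0.52 ± 0.12 in controls 1-2 (0.00453) and -0.10 ± 0.12 in controls 3-4 (0.695). The set-adjusted call was lost without FVB/N control 1 (-0.22, adjusted p = 0.193), FVB/N control 2, FVB/N control 3, TgS control 1 or TgS control 2, and without controls 1-2 of the 3 strains (-0.11, 0.639). It was also lost with the 8 arrays alone (limma adjusted p = 0.149), the 12 naive prefrontal arrays (0.132) and quantile normalization (0.0711). Array weights (0.257), no set term (0.384) and a replicate block (0.0662) lost it too. Bche, butyrylcholinesterase, read 5.46, 5.43, 5.40 and 5.40 in TgS and 5.27, 5.40, 5.43 and 5.29 in FVB/N and was not called (0.07 ± 0.06). Chat, the acetylcholine-synthesising enzyme, was not analysed here.

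Of 19 measured cholinergic genes, Ache was lower and the nicotinic subunit gene Chrnb3 higher set-adjusted (5.35, 5.37, 5.39 and 5.48 in TgS, 5.10, 5.06, 5.09 and 5.2 in FVB/N, difference 0.28 ± 0.08), where 6.52% of all transcripts were lower and 4.40% higher. In controls 3-4, 0 of 19 were called, with a median of 0.09, where limma called 688 of all transcripts and 4061 had an unadjusted p under 0.05. Among so few genes, 0 calls cannot be set apart from the share of all transcripts. In controls 1-2, 5 of 19 were lower, where 14.6% of all transcripts were, among them the muscarinic receptor gene Chrm1, which read 8.11, 8.26, 8.66 and 8.61 in TgS and 8.92, 9.07, 8.39 and 8.71 in FVB/N. For Chrm1 the sets differed (-0.90 ± 0.18, adjusted p = 0.00191), and TgS and FVB/N overlapped in controls 3-4.

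In controls 3-4, where 0.747% of all transcripts were called higher and 2.29% lower, the following 8 lists held 0 or 1 call each, too few to set apart from that share. Cortical excitatory neuron markers had 0 of 20 called there (median 0.09), GABAergic interneuron markers 0 of 18 (median 0.06), myelin and oligodendrocyte markers 0 of 15 (median -0.20), and oxidative phosphorylation genes 0 of 29 (median 0.09). Set-adjusted, 3 cortical markers were higher, Neurod2, Bcl11b and Foxp2, and each of these was called in controls 1-2 and not in controls 3-4. Neurod2, a neuronal differentiation factor gene, read 10.61, 10.89, 9.30 and 9.26 in TgS and 9.15, 9.13, 9.05 and 9.2 in FVB/N. Immediate early genes, which follow neuronal activity, had 1 of 24 called in controls 3-4, Klf4, which vessel cells also transcribe, at -1.05 ± 0.22 (limma adjusted p = 0.0111). Glucocorticoid-induced genes had 1 of 20 called there, Tsc22d3, at 0.50 ± 0.10, and it was lower in controls 1-2 (-0.39 ± 0.10). Heat shock and chaperone genes had 0 of 22 called in controls 3-4, and splicing regulators 1 of 27, Ptbp1, which read 9.63, 9.64, 9.23 and 9.17 in TgS and 9.87, 9.85, 9.66 and 9.61 in FVB/N (-0.43 ± 0.09, adjusted p = 0.00680).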

How the data were processed

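The deposited values are log2 probe set signals that the authors made by RMA, and the submitters' processing notes also name Affymetrix Expression Console and Affymetrix Power Tools. Versions were not stated, nor whether all arrays were summarised together. The table holds 22690 probe sets. Without the array's 64 control probe sets 22626 remained, of which 20380 carry 1 gene symbol, 691 several and 1555 none. No filter on signal was applied, and no detection calls were used, so the number of arrays limits the precision. A gene is represented by its probe set with the highest mean over all 29 arrays. Symbols of 20351 probe sets were matched to RefSeq.

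Tests were two-sided and used limma 3.58.1 in R 4.3.3 on all 29 arrays. The set-adjusted comparison and those of the other regions and treatments came from a fit with 12 group means and a set term (16 residual degrees of freedom). Comparisons within a set, between sets and between naive and MPTP-exposed arrays came from a fit with 15 group means (14 degrees of freedom). The fits were tested on simulated data with the same strain difference in both sets. That test does not cover strain differences that vary between the sets. Because the set-adjusted fit takes differences between the sets as spread, its errors are large for transcripts high on 2 arrays. The comparison of naive controls 3-4 with MPTP-exposed arrays was added after values were seen.

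Beside the cholinesterase genes, the named genes are the 12 largest called rises and falls on the same side in both sets, the 6 largest each way in controls 3-4, the 5 largest differences each way between sets, up to 4 genes of a list by p, and sex-linked genes as a description of the arrays. Further genes, chosen after their values were seen, are examples of a list, of the strain markers or of the calls in every group. Members and lists were chosen with earlier results of these data known. No pair of the 8 arrays shared more than 4.2% identical values. Same-numbered arrays did not deviate together. Ddx3y was not analysed here.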

Additional observations from a re-analysis of the deposited data

Results flagged for a closer look

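Of 110 groups of 4 arrays examined for 55 genes, 3 held an array far from the other 3. A chance rate of about 1 in 20 would hold for 4 like arrays. Each group joins arrays of both sets, and for many of these genes the sets differed. That rate therefore does not apply, and the count is a description. These were Mocs2 on TgS control 1 (9.44), Glo1 on FVB/N control 4 (10.43) and Fgf1 on TgS control 3 (6.86).

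For 37 of the 55 genes the TgS minus FVB/N difference differed between the sets (difference in controls 1-2 minus that in controls 3-4, limma adjusted p under 0.05), as it did for 3446 of all transcripts. Genes high on TgS controls 1 and 2 gave the following values: AI504432 5.03, Bcl11b 4.53, Pura 4.38, Nfix 4.37, Pak3 4.09, Rasal2 4.04, Gpd2 3.85, Kcna1 3.6, Mfap3 3.58, Gabrb1 3.42, Rbfox1 3.34, Rora 3.18, Cacnb4 3.00 and Smarcc1 2.54. The difference was more negative in controls 3-4 for the vascular and meningeal genes Cldn5 (1.31), Slc6a20a (1.15), Cxcl12 (1.10), Tek (1.04), Sox17 (0.81), Pltp (0.72) and Zic1 (2.16). Gfap (0.81), Vim (0.83), Gprc5b (0.99) and Tmem159 (0.59) ran the same way. Not all of these genes were lower in TgS in controls 1-2: Cldn5 and Vim were not, and Zic1 lay higher there. Gdpd3 gave 5.88, Baiap2l1 -3.87, Cth -1.33 and Mcm6 -1.05, all genes at which the arrays labelled FVB/N controls 1 and 2 lay near TgS. The others were Krt12 (-2.85), Actb (-2.33), Usf1 (-2.27), Fgf1 (-2.12), Slc44a2 (-1.47), Mtm1 (-0.90), Meg3 (-0.77) and Ighm (-0.64). The causes were not tested.

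For 158 transcripts the difference in naive controls 3-4 differed from that in the MPTP-exposed prefrontal cortex.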

How the results depend on the processing

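The set-adjusted count of 2471 was 241 with the 8 arrays alone, 360 with the 12 naive prefrontal arrays, 925 with array weights, 1626 with the mean of a gene's probe sets (fewer features tested), 385 with no set term, 843 without controls 1-2 (389 of them among the 2471) and, chosen after seeing the data, 4571 as the mean of the sets in the 15-group fit. The count in controls 3-4 (688) was 438, 344 and 1211 under the first 3 of these. The count in controls 1-2 (5667) was 3352 with the mean of probe sets, and that between the sets (3446) was 2244 with 12 arrays and 2047 with the mean of probe sets. Naive caudate-putamen, MPTP-exposed prefrontal cortex and MPTP-exposed caudate-putamen (495, 82 and 157) gave 161, 23 and 38 with no set term, and 2092, 261 and 915 without controls 1-2. Leaving out 1 array at a time gave 794 (without TgS control 2) to 2887 set-adjusted, 190 (without FVB/N control 3) to 963 in controls 3-4, 3592 (without FVB/N control 1) to 4590 in controls 1-2, and 2194 (without FVB/N control 3) to 3541 between the sets. For the other groups in the same order it gave 69 to 403, 22 to 33 and 45 to 92, and for naive controls 3-4 against the MPTP-exposed prefrontal cortex (158) 21 (without FVB/N control 3) to 210. An arm left with 1 array was assumed to vary like the others. Quantile normalization, leaving out the dimmest transcripts, and trended variance kept each count they were run for within 1.5 times. Gene results kept direction in all 1149 comparisons with an alternative, and 149 lost their call. Nearly all of these genes were called in the main fit, many of them named for arrays that did not overlap. A change of direction was therefore unlikely from the start, and its absence is no test of the results. Replicate numbers did not pair the arrays (correlation of deviations 0.098 in controls 1-2 and -0.057 in controls 3-4), and with a replicate block the counts were 2015 set-adjusted, 602 in controls 3-4 and 5445 in controls 1-2. The causes were not tested.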
